A study of Mus musculus with 12 samples.

Results

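The 6 genes described here are members of the C/EBP family (Cebpa, Cebpb, Cebpd and Cebpg) and of the BHLHE subfamily of basic helix-loop-helix factors (Bhlhe40 and Bhlhe41), taken by symbol from the 23959 genes of the deposited expression table. All 6 had a row and all 6 passed the filter on low values. They were measured by RNA-seq in bone marrow-derived macrophages (BMDMs) of wild-type C57BL/6J mice, grown for 7 days with 20 ng/ml of M-CSF, the growth factor that turns marrow cells into macrophages. The study asked how a cell-penetrating Toll-like receptor inhibitor peptide (cpTLR-i), a stretch of the TIR domain of the adaptor TIRAP joined to a cell-penetrating sequence, alters the response to lipopolysaccharide (LPS), the bacterial ligand of TLR4. There were 4 groups of 3 libraries, all WT. These were untreated cells at 0 h (control), cells with 200 ng/ml LPS for 2 h (LPS), and the peptide groups. The latter were kept for 1 h with cpTLR-i at 1 μM or 10 μM and then stimulated with LPS as above. No library here held cells with the peptide but no LPS, or with either piece of the peptide alone. The controls differ from the other groups in time as well as in LPS, so these cannot be told apart in a comparison with control.

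C/EBP proteins bind DNA as dimers through a leucine zipper, and members pair with each other and with related zipper proteins. C/EBPα sets up the myeloid lineage and restrains division, C/EBPβ and C/EBPδ are known as factors of the acute-phase and TLR response, and C/EBPγ is a short member that lacks a transactivation domain and works through its partners. BHLHE40 (DEC1) and BHLHE41 (DEC2) are repressors that bind E-box DNA, dampen the circadian CLOCK-BMAL1 pair and, in mouse macrophages and T cells, BHLHE40 holds down Il10.

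The unit is FPKM, fragments scaled to transcript length and to the mapped fragments of the library. Fold changes are on the log2(FPKM + 0.25) scale, and a gene was called at a Benjamini-Hochberg adjusted p under 0.05 (limma, fitted to all 12 libraries and 12315 genes) with a change over 1.5-fold. Whether replicate libraries stem from different mice or dishes is not in the labels, and the p-values cover library-to-library spread alone. In bulk RNA, fewer cells of a type and less RNA per cell cannot be told apart.

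With LPS, 2 of the 6 genes rose and 4 fell against control, while 10 μM cpTLR-i raised 5 of them and lowered 1 against LPS alone. Among all 12315 genes, LPS against control called 46.8%, with 11.0% higher and 35.8% lower. In 10 μM cpTLR-i against LPS, all 6 members were called, beside 31.0% of all genes, of which 21.5% of the genes tested were higher and 9.44% lower. In 1 μM cpTLR-i against LPS, 3 members (Cebpb, Bhlhe40 and Bhlhe41) were called, all higher, where 1.12% of all genes were called, 0.495% higher and 0.625% lower. All 6 were called between the doses, 5 higher and 1 lower at 10 μM, beside 25.0% of all genes (15.9% higher and 9.05% lower). Against control, 10 μM cpTLR-i called 4 members higher and 2 lower (all genes 25.7%, with 8.57% higher and 17.1% lower), and 1 μM cpTLR-i called 2 higher and 3 lower (all genes 42.1%, with 10.9% higher and 31.3% lower). The median log2 fold change over all genes tested was -0.39 in LPS against control, 0.22 in 10 μM cpTLR-i against LPS and 0.06 in 1 μM cpTLR-i against LPS, and the members' values stand against these shifts.

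**Figure D1:**
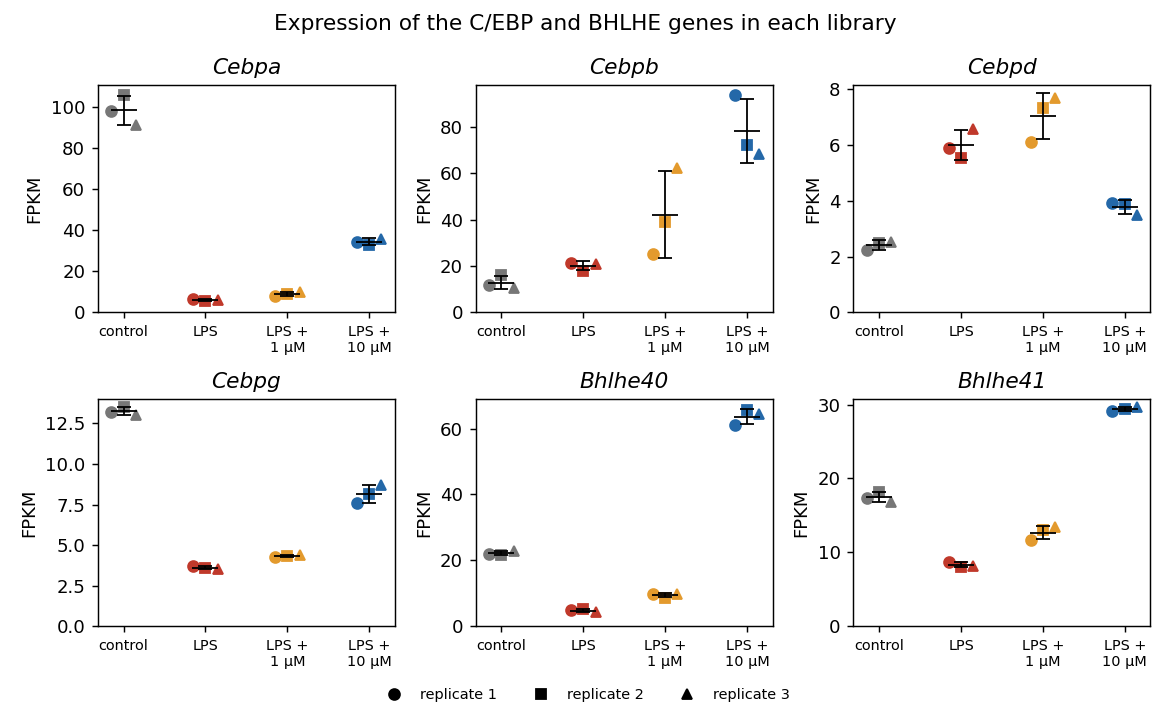
FPKM of each gene (vertical axes, from 0, a scale for each panel) in the 12 libraries, by group. Points are libraries, with a marker shape for each replicate number, and bars are the mean ± SD of 3 libraries. Cebpa and Cebpg are highest in control, Bhlhe40, Bhlhe41 and Cebpb are highest at 10 μM, and Cebpd is high with LPS alone and at 1 μM.

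Cebpa, the myeloid lineage factor, had the highest level of the 6 in untreated cells and a low level with LPS. Its FPKM was 97.9, 106 and 91.4 in control, 6.32, 5.62 and 5.85 with LPS, 7.71, 9.14 and 9.94 at 1 μM and 34.4, 32.7 and 36.0 at 10 μM cpTLR-i. No group overlapped another, and the 10 μM libraries lay between the LPS and the control libraries. LPS lowered Cebpa 15.9-fold against control (log2 fold change -4.00, SE 0.08, adjusted p = 4.99e-14), rank 12 of 12315 genes from the largest fall. At 10 μM it was 5.60-fold higher than with LPS alone (2.48, SE 0.08, adjusted p = 1.19e-11), rank 67 from the top, and still 2.85-fold lower than control (-1.51, adjusted p = 3.38e-09). At 1 μM the rise over LPS was 1.48-fold (0.56, adjusted p = 0.000677), under the fold needed for a call. Without LPS library 1 it was 0.61 and without 1 μM library 1 it was 0.66, and in both cases Cebpa was called.

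Cebpg, the short partner, followed the same course at a lower level. Its FPKM was 13.2, 13.5 and 13.0 in control, 3.69, 3.61 and 3.54 with LPS, 4.27, 4.31 and 4.37 at 1 μM and 7.60, 8.12 and 8.73 at 10 μM. The 4 groups did not overlap here either, in the order control, 10 μM, 1 μM, LPS. LPS lowered it 3.50-fold (-1.81, SE 0.05, adjusted p = 1.26e-12), 10 μM cpTLR-i raised it 2.17-fold over LPS (1.12, SE 0.05, adjusted p = 2.95e-10), and it stayed 1.61-fold lower than control at 10 μM (-0.69, adjusted p = 6.85e-08). That last call is lost with median-ratio scaling (-0.51) and with GC correction (-0.58). At 1 μM the value over LPS was 0.24 (SE 0.05, adjusted p = 0.00601), which did not reach 1.5-fold. Over the 12 libraries, Pearson's r of the log2 values of Cebpg and Cebpa was 0.998, the second highest of the named genes for Cebpa. The libraries fall into 4 separate groups, so such an r mostly describes the order of the group means.

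Cebpa and Cebpg are neighbours on mouse chromosome 7 (GRCm38.p6, positions from RefSeq and exon counts from GENCODE). Cebpa lies on the plus strand at chr7:35119293-35121928 with 1 exon, and Cebpg on the minus strand at chr7:35046422-35056566 with 2 exons, so that they are transcribed away from each other with 62.7 kb between their starts. Because this pair moved together, the 250 bases before each start are shown (RefSeq, GRCm38.p6, each 5′ to 3′ on its gene's strand, plus for Cebpa at chr7:35119043-35119292 and minus for Cebpg at chr7:35056567-35056816). Capitals mark motif matches.
Cebpa: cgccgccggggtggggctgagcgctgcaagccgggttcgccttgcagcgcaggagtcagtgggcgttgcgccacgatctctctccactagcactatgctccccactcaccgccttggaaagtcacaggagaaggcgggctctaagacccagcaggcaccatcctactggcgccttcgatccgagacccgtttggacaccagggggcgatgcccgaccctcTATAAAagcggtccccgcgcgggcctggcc
Cebpg: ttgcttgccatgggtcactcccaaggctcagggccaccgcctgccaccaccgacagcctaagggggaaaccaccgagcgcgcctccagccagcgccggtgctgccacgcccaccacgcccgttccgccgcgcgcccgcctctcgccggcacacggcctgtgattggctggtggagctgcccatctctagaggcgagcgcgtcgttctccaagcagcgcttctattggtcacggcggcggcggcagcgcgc
The motifs searched on both strands, in a window of 300 bases that also holds the 50 bases after the start, were the C/EBP site TTNNGNAA, the CRE core TGACG, the full CRE TGACGTCA, the E-box CACGTG, the NF-κB-type site GGANNTTCC, the AP-1-type site TGANTCA and the TATA box TATAAA. Of 32851 mouse promoters, 40.7% held TTNNGNAA, 20.8% TGACG, 1.79% TGACGTCA (which contains TGACG), 7.15% CACGTG, 4.26% GGANNTTCC, 7.81% TGANTCA and 13.6% TATAAA. Cebpa had a TATAAA at position -30, where -1 is the base before the start, and Cebpg had none of these motifs in its window.

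Cebpb, a mediator of the acute-phase and inflammatory response, was the only one of the 6 whose mean was higher in each step of the series control, LPS, 1 μM and 10 μM. Its FPKM was 11.7, 16.0 and 10.6 in control, 21.5, 18.0 and 21.0 with LPS, 25.0, 39.1 and 62.3 at 1 μM and 94.0, 72.4 and 68.2 at 10 μM. No library of a step overlapped the step below it, but the 1 μM libraries spread widely and library 3 of that group came near the lowest 10 μM library. At 10 μM, Cebpb was 3.82-fold higher than with LPS (log2 fold change 1.93, SE 0.25, adjusted p = 1.33e-05) and 6.06-fold higher than control (2.60, SE 0.25, adjusted p = 1.06e-06). It therefore rose with LPS and rose further with the peptide, unlike Cebpa, Cebpg, Bhlhe40 and Bhlhe41, which LPS lowered.

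The smaller steps of Cebpb are less firm. LPS against control gave 0.66 (SE 0.25, adjusted p = 0.0257). The call was lost without control library 1 or 3 or without LPS library 1 or 3 (0.61, 0.55, 0.62 and 0.63). It was also lost when no gene was filtered out (adjusted p = 0.08), while median-ratio scaling gave 1.08 (adjusted p = 0.00255). The SE is shared by all 4 groups, of which 1 μM had the widest spread of Cebpb. With only the control and LPS libraries in the fit, the SE was 0.14 (adjusted p = 0.00162, limma). The 1 μM group gave 0.96 over LPS (SE 0.25, adjusted p = 0.0195), rank 13 of 12315 from the top, and this call was lost with no filter (adjusted p = 0.0808) and without LPS library 2 (0.88) or 1 μM library 2 (0.97) or 3 (0.63). Between the doses the difference was 0.97 (SE 0.25, adjusted p = 0.00417), called in each leave-one-out fit with values of 0.65 to 1.30.

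Cebpb also varied more between libraries of a group than nearly all genes. The SD of its log2 values at 1 μM was 0.65, at the 99.4th percentile of the genes tested (median 0.07), and only Neat1, H2aw and Gm45935 had a larger SD among the 8965 genes averaging 2 FPKM or more there. Its SD lay at the 97.0th percentile in control, the 83.4th with LPS and the 94.0th at 10 μM. The transcript of Cebpb is 67.2% G and C, and 17 of the 11809 genes with a GC value, Cebpb included, reached that share (median 49.5%). As a set, the 416 genes tested with at least 60% GC deviated in the same libraries. In each of the 4 groups, the library with the highest Cebpb also had the highest median of these genes, and the library with the lowest Cebpb had the lowest. The lowest medians were near ties in control (-0.0145 in library 3 and -0.0142 in library 1) and at 10 μM (-0.0144 in library 3 and -0.0139 in library 2). At 1 μM, Cebpb deviated from its group mean by -0.65, -0.01 and 0.66 (log2) in libraries 1, 2 and 3, and the GC-rich genes by a median of -0.07, 0.02 and 0.04. The part of this library difference in the spread of Cebpb was not tested. After a correction of each library for GC content, which was chosen after seeing the data, Cebpb was 1.23 in LPS against control (SE 0.20, adjusted p = 9.11e-05), 0.76 in 1 μM against LPS (adjusted p = 0.0215) and 1.47 in 10 μM against LPS (SE 0.20, adjusted p = 2.36e-05).

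**Figure D2:**
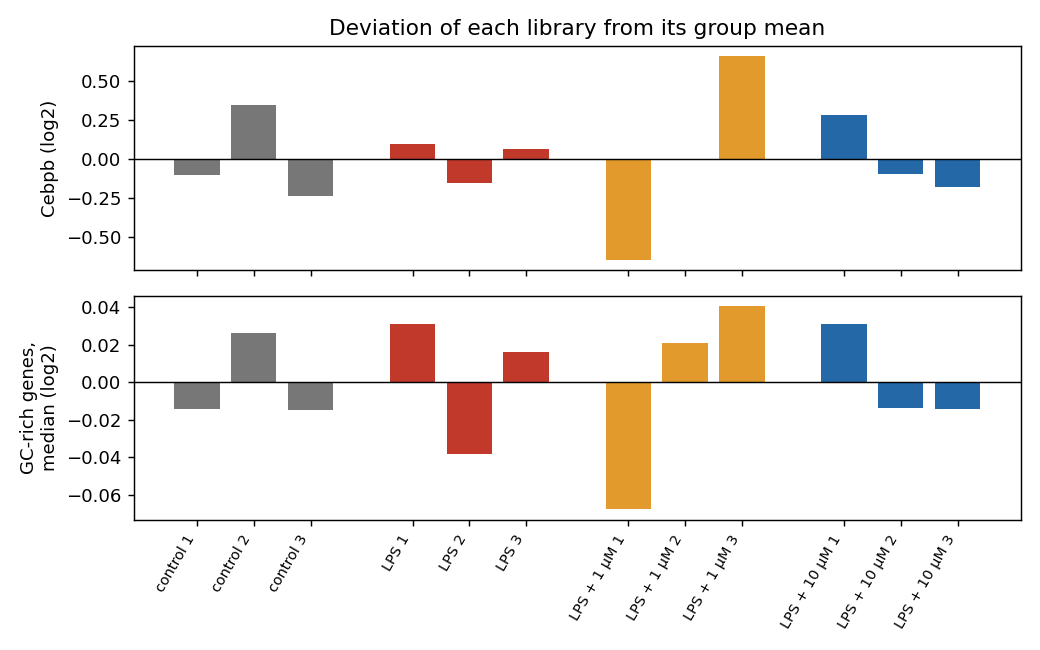
Deviation of each of the 12 libraries from its group mean on the log2(FPKM + 0.25) scale, for Cebpb (upper axis) and as the median of 416 genes with at least 60% GC (lower axis, on a finer scale). Bars are libraries. The library with the highest and that with the lowest Cebpb are the same as for the GC-rich genes in all 4 groups (the lowest by a near tie in control and at 10 μM), with -0.65 and 0.66 for Cebpb in libraries 1 and 3 at 1 μM.

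Cebpb is a gene of 1 exon on the plus strand at chr2:167688915-167690432 (GRCm38.p6). Its proximal promoter is shown because it is also GC-rich, with 204 of 250 bases G or C (81.6%, against 67.2% of the transcript), and holds 3 copies of the CRE core that CREB and ATF factors bind (capitals, plus strand, chr2:167688665-167688914, RefSeq).
Cebpb: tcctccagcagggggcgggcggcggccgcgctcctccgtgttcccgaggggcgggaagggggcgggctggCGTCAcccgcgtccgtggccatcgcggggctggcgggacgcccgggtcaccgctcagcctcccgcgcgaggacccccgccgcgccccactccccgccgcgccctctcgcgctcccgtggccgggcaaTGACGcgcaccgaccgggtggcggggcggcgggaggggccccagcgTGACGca
The copies lie at positions -180 (as the reverse complement CGTCA), -53 and -7, and 1.04% of the 32851 promoters hold at least 3 in their window. A TATAAA lies after the start, beyond the bases shown, at position 272 of the window. A match is a description of the letters and not a measured site. The exons of Cebpb share 312 bases with those of Tmem189 on the opposite strand, and the library kit is named as Standard in the methods and as Stranded in the labels, so reads from the shared stretch may have been counted for either gene. Tmem189 had 137 ± 0.782 FPKM in control, 51.4 ± 0.823 with LPS, 58.6 ± 0.724 at 1 μM and 143 ± 2.68 at 10 μM (SD, n = 3). Both genes were higher in each step of LPS, 1 μM and 10 μM, whereas in control Tmem189 was high and Cebpb was lowest. The part of shared reads in the values of Cebpb was not tested.

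Cebpd, the factor known in mouse macrophages to amplify TLR4 signals, was the member that LPS raised and 10 μM cpTLR-i lowered. Its FPKM was 2.22, 2.49 and 2.53 in control, 5.90, 5.54 and 6.59 with LPS, 6.10, 7.34 and 7.69 at 1 μM and 3.92, 3.90 and 3.47 at 10 μM. The LPS and 1 μM libraries overlapped, and both groups lay above every 10 μM library, which in turn lay above every control. LPS raised Cebpd 2.35-fold (1.23, SE 0.09, adjusted p = 2.65e-08), and at 10 μM it was 1.56-fold lower than with LPS (-0.64, SE 0.09, adjusted p = 2.65e-05). This fall is close to the fold needed for a call and passes below it with a pseudocount of 1 (-0.56) and without LPS library 3 (-0.57). At 1 μM the value over LPS was 0.22 (SE 0.09, adjusted p = 0.114), and 10 μM against 1 μM gave -0.86 (SE 0.09, adjusted p = 2.17e-06), which was called in each alternative. Against control, Cebpd was 0.59 higher at 10 μM (SE 0.09, adjusted p = 6.37e-05), just past the fold, and that call was lost with a pseudocount of 1 (0.48) and without control library 1 or 10 μM library 1 or 2 (0.54, 0.56 and 0.57). The gene lies at chr16:15887286-15889545 on the plus strand (GRCm38.p6, RefSeq). Its longest GENCODE transcript has 1 exon of 3746 bases and is longer than this span. In GENCODE, Cebpd shares 562 exon bases with Spidr on the opposite strand, which may lie outside the span given. Spidr had 4.04 ± 0.440 FPKM at 10 μM and 3.72 ± 0.317 FPKM with LPS (SD, n = 3).

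As a family, the 4 C/EBP transcripts had overlapping sums at 10 μM and in control, but in different proportions. Their summed FPKM was 127 ± 10.3 in control, 35.7 ± 2.57 with LPS, 62.4 ± 20.7 at 1 μM and 124 ± 13.4 at 10 μM (SD, n = 3), with a range of 116 to 140 at 10 μM and 118 to 138 in control. Cebpa made up 77.6% of the sum in control, 16.6% with LPS, 15.0% at 1 μM and 27.8% at 10 μM, while Cebpb made up 9.99%, 56.3%, 65.7% and 62.5% in the same order. Cebpd held 16.8% with LPS and 3.04% at 10 μM, and Cebpg held between 6.62% and 10.5% on average in all 4 groups. These are shares of transcripts per length, not of protein. The ratio of Cebpb to Cebpa within a library was 0.119, 0.151 and 0.116 in control, 3.39, 3.19 and 3.58 with LPS, 3.25, 4.28 and 6.26 at 1 μM and 2.73, 2.21 and 1.90 at 10 μM. Every library with LPS thus had more Cebpb than Cebpa, with or without the peptide, and every control had less. The 10 μM libraries were all below the LPS libraries, whereas the 1 μM libraries overlapped them. This ratio and the one of the BHLHE genes were chosen after the values were seen and have no test.

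**Figure D3:**
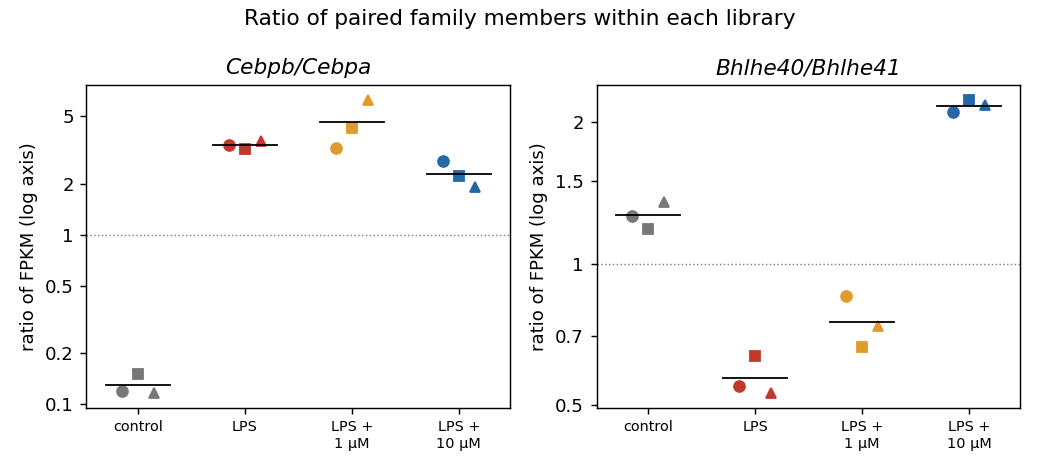
Ratio of FPKM within each library (log axes), Cebpb over Cebpa on the left and Bhlhe40 over Bhlhe41 on the right, by group. Points are libraries, black lines are means of 3 libraries and the dotted line is a ratio of 1. Cebpb exceeds Cebpa in all libraries but the controls, and Bhlhe40 exceeds Bhlhe41 only in control and at 10 μM, with means of 1.27 and 2.16.

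Bhlhe40, the repressor DEC1, had the largest change of the 6 genes with the peptide. Its FPKM was 22.0, 21.5 and 22.8 in control, 4.78, 5.13 and 4.36 with LPS, 9.92, 8.64 and 9.86 at 1 μM and 61.1, 65.5 and 64.3 at 10 μM. The groups did not overlap, and every 10 μM library stood above the controls. At 10 μM it was 12.8-fold higher than with LPS (log2 fold change 3.68, SE 0.06, adjusted p = 2.36e-14), rank 11 of 12315 genes from the largest rise. LPS alone had lowered it 4.48-fold against control (-2.16, SE 0.06, adjusted p = 1.88e-12), and at 10 μM it was 2.86-fold higher than control (1.51, SE 0.06, adjusted p = 2.35e-10). At 1 μM it was already 1.94-fold higher than with LPS (0.96, SE 0.06, adjusted p = 8.23e-06), rank 14 of all genes, and it was the only member called at this dose under every alternative tried, with 0.90 to 1.02 when 1 library was left out. It was then still 2.30-fold lower than control (-1.20, adjusted p = 9.44e-10). Bhlhe40 lies at chr6:108660629-108666925 on the plus strand (GRCm38.p6) with 5 exons, and the antisense gene that overlaps it was at or near 0 in all 12 libraries.

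Bhlhe41, the related repressor DEC2, moved in the same directions by less. Its FPKM was 17.4, 18.2 and 16.8 in control, 8.71, 8.07 and 8.21 with LPS, 11.6, 13.0 and 13.4 at 1 μM and 29.2, 29.4 and 29.7 at 10 μM. No groups overlapped, and the 10 μM libraries again lay above the controls. LPS lowered it 2.07-fold (-1.05, SE 0.05, adjusted p = 5.16e-10, and -0.63 with median-ratio scaling), and 10 μM cpTLR-i raised it 3.46-fold over LPS (1.79, SE 0.05, adjusted p = 3.56e-12) and 1.67-fold over control (0.74, adjusted p = 4.68e-08). At 1 μM the value was 0.59 over LPS (SE 0.05, adjusted p = 3.28e-05), a call that rests on the fold threshold. It passes below it with TPM (0.57), a pseudocount of 1 (0.55), median-ratio scaling (0.52), quantile normalization (0.50) and GC correction (0.55), and without LPS library 2 or 3 or 1 μM library 2 or 3 (0.57, 0.58, 0.57 and 0.55). Against control, Bhlhe41 was -0.46 at 1 μM (adjusted p = 2.52e-06), which did not reach 1.5-fold and was -0.11 with median-ratio scaling and -0.26 with GC correction.

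The ratio of Bhlhe40 to Bhlhe41 was 1.27 ± 0.0863 in control, 0.572 ± 0.0562 with LPS, 0.752 ± 0.0960 at 1 μM and 2.16 ± 0.0667 at 10 μM (SD, n = 3). The highest LPS library had 0.636 and the lowest 1 μM library 0.664, so these groups were close, while the 10 μM libraries (2.09 to 2.23) stood apart from all others. Bhlhe41 also lies on chromosome 6, on the minus strand at chr6:145858243-145865420 (GRCm38.p6) with 5 exons. In GENCODE it shares 1280 exon bases with Gm43909 on the opposite strand, a gene without values here. The part of shared reads in the values of Bhlhe41 was not tested. The proximal promoter of Bhlhe41 is shown for the E-box it contains, the kind of element that BHLHE factors themselves bind (capitals, minus strand, chr6:145865421-145865670, RefSeq).
Bhlhe41: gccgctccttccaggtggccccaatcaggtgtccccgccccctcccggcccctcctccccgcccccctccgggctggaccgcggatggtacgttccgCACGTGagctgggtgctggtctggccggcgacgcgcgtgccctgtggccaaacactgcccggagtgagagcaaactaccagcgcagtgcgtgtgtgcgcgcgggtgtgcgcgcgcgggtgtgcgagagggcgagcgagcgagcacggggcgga
The CACGTG is at position -153, and 7.15% of promoters hold 1 or more. Promoter entries were matched for 4 of the 6 genes, and those of Cebpd and Bhlhe40 are not shown.

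**Figure D4:**
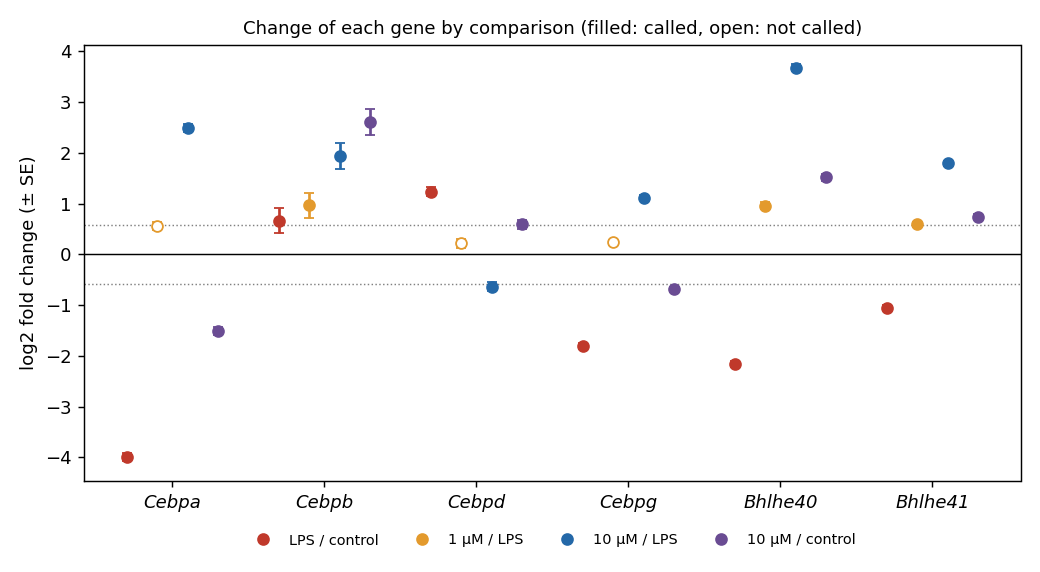
Log2 fold change of each gene (vertical axis, ± SE from limma) in LPS over control, 1 μM cpTLR-i over LPS, 10 μM cpTLR-i over LPS and 10 μM cpTLR-i over control. Filled points were called, open points were not, and dotted lines mark 1.5-fold. Against LPS at 10 μM, Bhlhe40 stands highest at 3.68 and Cebpd is the only gene below 0, at -0.64.

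The genes most like each member were named by Pearson's r of log2 values over the 12 libraries, which describes these libraries and is mostly set by the 4 group means. Symbols of predicted genes and rows with no symbol were left out of this search. For Cebpa they were Tor4a, Cebpg, Rab40c, Sh2d3c and Foxo3, with r of 0.997 to 0.998, and for Cebpg they were Aspm, Slc26a11, Arl11, Mtmr3 and Cebpa. Foxo3, a forkhead factor, averaged 23.3 FPKM in control, 1.04 with LPS, 1.65 at 1 μM and 8.72 at 10 μM. For Bhlhe40 they were Slc25a44, Klf10, Bag3, Actn4 and Iqsec1, and for Bhlhe41 they were Srsf2, Gde1, Bhlhe40, Klf10 and Sh3tc1, so that Klf10, a zinc-finger factor inducible by TGF-β, was near both. Klf10 averaged 10.7 FPKM in control, 4.21 with LPS, 6.64 at 1 μM and 18.6 at 10 μM. Cebpd was most like Slc13a3, Col18a1, Pak4, Brd2 and Rap2b, with r up to 0.991. Among the genes kept, Cebpb had no neighbour as close as these, since its highest r was 0.974 (Gnb1), followed by Adrm1, Ninj1, Arc and Erdr1. Erdr1 was itself among the 5 genes with the largest SD at 1 μM, with 24.2, 48.2 and 55.9 FPKM in libraries 1, 2 and 3, and stood in the same library order as Cebpb.

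Of the dimer partners and modulators of C/EBP proteins, 13 of 16 were tested, and 6 rose and 3 fell at 10 μM against LPS (median log2 fold change 0.43, all genes 0.22), while median-ratio scaling called 4 higher and 4 lower (median 0.19). Ddit3 (CHOP) is an inhibitory partner of the stress response. It had 23.0 ± 0.813 FPKM at 10 μM, 5.91 ± 0.404 with LPS and 19.8 ± 0.311 in control. Atf4 heads the integrated stress response. It had 111 ± 1.80 FPKM at 10 μM, 43.1 ± 0.413 with LPS and 48.6 ± 1.73 in control (SD, n = 3). Trib3, a pseudokinase induced by CHOP and ATF4, was 2.37 higher on the log2 scale at 10 μM against LPS (adjusted p = 4.92e-10). The 3 that fell were Batf2 (-3.36), Nfil3 (-1.77) and Batf (-1.63), zipper factors that LPS had raised against control by 3.01, 1.77 and 2.46. Atf3, the most abundant of the list, was 0.43 higher and Atf5 0.33 higher at 10 μM, both under 1.5-fold. LPS against control called 3 of the 13 higher and 4 lower, with a median of -0.25 that turned to 0.14 under median-ratio scaling. At 1 μM, Batf2 fell against LPS (-0.62, adjusted p = 0.00152) and no other gene of the list was called.

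Most myeloid genes known as C/EBP targets rose with LPS. Of 27 tested among 30, LPS raised 18 and lowered 2 against control (median 3.26, all genes -0.39), and 10 μM cpTLR-i lowered 14 and raised 4 against LPS (median -1.26). The largest falls at 10 μM were those of cytokine and effector genes. Il12b had 0.441 ± 0.0850 FPKM at 10 μM and 298 ± 9.21 with LPS, Il6 had 0.0589 ± 0.0530 FPKM at 10 μM and 59.3 ± 2.51 with LPS (SD, n = 3), and Il6 was listed at 0 in all 3 controls. Ccl5 (-6.38), Nos2 (-6.34) and Il1b (-5.92) fell too, while Lyz2, the lysozyme gene and the most abundant of the list, was at -0.03 (adjusted p = 0.404), and Ccl3 was at -2.41. The 4 that rose were Pparg, Chil3, Mpo and Elane. The last 2 averaged 1.05 and 0.987 FPKM at 10 μM and are also neutrophil precursor markers. Chil3 was only just past the fold (0.59, adjusted p = 3.61e-05, limma). Median-ratio scaling called 3 of the list higher and 15 lower at 10 μM against LPS, and GC correction 2 higher and 15 lower. Pparg is a nuclear receptor that C/EBP factors induce in fat cells. It had 18.9 ± 1.94 FPKM at 10 μM, 4.06 ± 0.226 with LPS and 17.0 ± 0.755 in control (SD, n = 3). At 1 μM, Il6 (-0.92), Il1b (-0.68) and Il12b (-0.67) fell against LPS and no target rose. At 10 μM against LPS, most calls of the list were lower, as was Cebpd, while Cebpa, Cebpb and Cebpg were higher. Many of these genes are also known targets of NF-κB. The part of any of these factors in the changes of the list was not tested.

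The 15 clock and E-box genes were all tested. Against control, LPS lowered 12 and raised 1 (median -1.26), where 35.8% of all genes were lower and 11.0% higher. At 10 μM against LPS, 10 rose and 1 fell (median 0.74), where 21.5% of all genes were higher and 9.44% lower. Per1, a core clock repressor, had 5.72 ± 0.133 FPKM at 10 μM, 0.348 ± 0.0215 with LPS and 5.17 ± 0.118 in control. Per2 had 2.18 ± 0.187 at 10 μM, 0.0877 ± 0.0226 with LPS and 0.554 ± 0.0402 in control (SD, n = 3). Nr1d1 (1.81) and Arntl (1.44), which encodes BMAL1, rose as well, as did Tef (0.73), while Nr1d2 was at 0.41, under 1.5-fold. The one that fell was Nfil3, which is in the list of C/EBP partners too, as are Dbp and Tef. Nr1d1 was the only one of the 15 called at 1 μM against LPS (0.63, adjusted p = 0.0018). It averaged 0.450 FPKM with LPS and 0.829 at 1 μM. In this comparison, GC correction called 0 of the 15 higher and 1 lower, and median-ratio scaling 1 higher and 1 lower. With median-ratio scaling, 11 fell and 2 rose with LPS and 7 rose and 1 fell at 10 μM.

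Of the other bHLH factors and their ID inhibitors, 16 of 19 were tested. LPS lowered 10 and raised 2 against control (median -0.78), where 35.8% of all genes were lower and 11.0% higher. At 10 μM against LPS, 7 rose and 2 fell (median 0.50), where 21.5% of all genes were higher and 9.44% lower. With median-ratio scaling, the split was more even, with 6 lower and 4 higher with LPS (median -0.38) and 5 higher and 3 lower at 10 μM (median 0.27). Myc had 14.4 ± 0.0660 FPKM at 10 μM, 1.77 ± 0.149 with LPS and 3.21 ± 0.509 in control. Id1 had 9.19 ± 0.541 FPKM at 10 μM, 1.14 ± 0.0791 with LPS and 4.80 ± 0.633 in control (SD, n = 3). Id2 (2.16), the most abundant of the list, Id3 (1.59) and Tfeb (2.27), a lysosomal gene regulator, rose with them. Srebf2, the cholesterol synthesis regulator, was at -0.16. The 2 that fell at 10 μM were Mitf (-1.47) and Tcf4 (-1.12), which LPS had raised against control by 2.08 and 0.94. Id3 was the only gene of this list called at 1 μM (0.75, adjusted p = 9.13e-05).

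A list of 12 held genes for factors acting on Cebpb or Bhlhe40 through CREB, ERK or hypoxia, or reading out such a signal. At 10 μM against LPS, 2 of the 12 rose and none fell (median 0.33, all genes 0.22). Of all genes tested, 21.5% were higher and 9.44% lower in this comparison. With median-ratio scaling, 2 of the list were higher and 1 lower (median 0.09). No gene of the list was called at 1 μM. Vegfa, a hypoxia target, had 18.4 ± 1.29 FPKM at 10 μM, 1.78 ± 0.0957 with LPS and 12.2 ± 0.297 in control (SD, n = 3). Atf1, a CREB family factor, was 1.16 higher at 10 μM against LPS (adjusted p = 6.5e-11). Hif1a (-0.58), Crem (0.52), Elk1 (0.40), Ets2 (0.36) and Stat3 (-0.25) did not reach 1.5-fold. LPS against control called 2 higher and 3 lower (all genes 11.0% and 35.8%), with a median of -0.10 that turned to 0.31 under median-ratio scaling. All these lists were drawn up with earlier results of these data known.

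The libraries were alike in scale, with FPKM sums of 403473 to 422014 and 10144 to 10905 genes at 1 FPKM or more, but absolute depth is unknown because no read counts were used here. The macrophage markers (7 of 7 in the table) summed to 14266 to 14842 FPKM in control, 11930 to 12181 with LPS, 11964 to 12733 at 1 μM and 11926 to 12227 at 10 μM, most of it Lyz2, which averaged 9626 to 12012 FPKM by group. Within this list Mertk, a receptor for dead cells, fell to 12.6 ± 0.686 FPKM with LPS, against 33.1 ± 1.72 in control (log2 fold change -1.38), and Fcgr1, an Fc receptor, fell to 16.5 ± 1.06 FPKM at 10 μM, against 25.5 ± 1.70 with LPS (-0.62; SD, n = 3). Markers of neutrophils and their precursors, the other cells that use C/EBP factors heavily, summed to 13.9 to 17.1 FPKM in control, 35.9 to 36.8 with LPS, 29.6 to 34.4 at 1 μM and 42.2 to 56.1 at 10 μM. Of this list of 10, 3 rose at 10 μM against LPS (Mpo, Elane and Prtn3, averaging 0.775 to 1.05 FPKM there) and 5 rose with LPS against control, while Ly6g averaged 0 FPKM at 10 μM and 0.0229 with LPS, and Cebpe, the granulocyte C/EBP, averaged 0.191 FPKM at 10 μM and 0.0448 with LPS. The part of these cells in the members' changes was not tested. Summed markers of stromal cells, dendritic cells, and the mast cell, basophil and eosinophil list did not exceed 1.14 FPKM in any library, those of T, B and NK cells reached 2.75 FPKM, nearly all from Cd4, and of the erythroid and megakaryocyte list only Pf4 was high.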

How the data were processed

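Total RNA of BMDMs was made into mRNA libraries (a TruSeq kit, named as Standard in the methods and as Stranded in the labels) and sequenced on an Illumina NovaSeq. The authors aligned reads to mm10 with HISAT2 2.1.0 and assembled them with StringTie 2.1.3b, and deposited FPKM and TPM values for 23959 genes. FPKM values were used as the authors deposited them, and TPM values, also deposited by the authors, served as an alternative. The authors tested counts with DESeq2 and a 1.5-fold threshold. Counts were not used here, so depth is unknown, and limma 3.58.1 in R 4.3.3 was fitted to log2(FPKM + 0.25) for genes that reached 0.5 FPKM in 3 or more of 12 libraries (lmFit, eBayes with trend, two-sided, Benjamini-Hochberg over 12315 genes). The script was tested on simulated data. For a single value, an exact permutation test of 3 libraries against 3 cannot go below p = 0.10, so none was used. Positions are RefSeq GRCm38.p6, in which 23897 gene IDs were found, and GC content, exon counts and overlaps are from GENCODE. Named genes were the 6 members, the 5 most like each, and of each list the 5 with the largest change at 10 μM against LPS and the 3 most abundant. Outside the cell type markers, genes of a list called in a peptide group against LPS were also named when 5 or fewer had the same direction. The members and lists were chosen with earlier results of these data known. Alternatives were the TPM values, no filter or a filter at 1 FPKM, a pseudocount of 0.1 or 1, median-ratio and quantile scaling, eBayes without trend, only the compared groups, a replicate block, unadjusted p, no minimum fold, each library left out, and GC correction, added after seeing the data.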

Additional observations from a re-analysis of the deposited data

Results flagged for a closer look

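The effect of cpTLR-i on Cebpd differed between the doses. Against LPS it was -0.64 at 10 μM and 0.22 at 1 μM, the latter not called (adjusted p = 0.114, limma). The difference of the doses was -0.86 on the log2 scale (SE 0.09, adjusted p = 2.17e-06, limma). All 6 members were called between the doses, and Cebpd was flagged for the opposite signs. All 3 libraries at 10 μM (3.92, 3.90 and 3.47 FPKM) were below all 3 at 1 μM (6.10, 7.34 and 7.69 FPKM).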

How the results depend on the processing

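The 36 member results (6 genes in 6 comparisons) were recomputed under 25 alternatives. Of 900 values, 869 kept their direction and side of the threshold, 26 lost the call, 5 gained it and 0 turned in sign. Many of these values could not turn in sign, because the alternative leaves the fold change as it was. Such alternatives are the filters, eBayes without trend, only the compared groups, the block, unadjusted p and no minimum fold. Leaving out a library of a group not compared is another. The results that changed were those of Cebpb in LPS against control and in 1 μM against LPS, Cebpd against LPS and control at 10 μM, Cebpg against control at 10 μM, and Cebpa, Cebpg and Bhlhe41 at 1 μM, and their values stand beside them above, where the cause was not tested. The number of members called in 1 μM against LPS was 3, between 1 and 4 when 1 library was left out, and 5 with no minimum fold, as fewer genes then fail on fold alone. The other counts of members moved by at most 1. Over all genes, calls without a minimum fold were 10648 (LPS against control), 9091 (10 μM against LPS), 2340 (1 μM against LPS), 8352 (10 μM against 1 μM), 8796 (10 μM against control) and 10239 (1 μM against control), beside 5760, 3812, 138, 3078, 3164 and 5188. A pseudocount of 1 gave 69 calls in 1 μM against LPS.

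Scaling moved the split of calls. With median-ratio scaling, higher and lower calls were 2094 and 2284 in LPS against control (1355 and 4405 without it), 1618 and 1532 in 10 μM against LPS (2649 and 1163), 44 and 114 in 1 μM against LPS (61 and 77), 1319 and 1388 in 10 μM against 1 μM (1964 and 1114), 1440 and 1281 in 10 μM against control (1056 and 2108) and 2004 and 2149 in 1 μM against control (1339 and 3849). All 6 members kept their signs under it, with -3.58 for Cebpa and -0.63 for Bhlhe41 in LPS against control and 3.44 for Bhlhe40 in 10 μM against LPS. The main fit did not pair libraries by replicate number. Correlations of same-numbered deviations ran from -0.17 to 0.15, with 1 of 18 over 0.1. Those of other-numbered deviations ran from -0.17 to 0.20, with 7 of 36 over 0.1. With 3 libraries in a group, such values cannot tell whether same-numbered libraries shared a mouse or culture. With the replicate number as a block, 6, 6, 3, 6, 6 and 5 members were called in the comparisons in the order above, as without the block.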
